A study of Mus musculus with 6 samples.

Results

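Fibroblasts are the matrix-making cells of the lung interstitium, and different kinds of them occupy different places. Alveolar fibroblasts lie in the walls of the gas-exchange sacs, where they support alveolar type 2 epithelial cells. Adventitial fibroblasts form the cuffs around vessels and airways and lay down denser collagen matrix. The 10 genes described here are a listed set of lung fibroblast genes, chosen by name from the 56262 genes of the deposited count table, and all 10 were found there and had enough counts to be tested. As general knowledge of the mouse lung, 6 of them belong to the alveolar kind (Tcf21, Pdgfra, Npnt, Inmt, Fgf10 and Fgfr4). The other 4 (Mfap5, Pi16, Dcn and Lum) are better known from adventitial fibroblasts, so the set covers both kinds and is called here the lung fibroblast genes. RNA of lung tissue cannot show which cell a transcript came from.

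RNA-seq was performed on lungs of 3 R/R mice and of 3 of their WT littermates, all 8 weeks old and on the C57BL/6 background. No treatment is named for these lungs. R/R mice carry the RBM47 substitutions K329R and K332R on both alleles, introduced by CRISPR/Cas, in every cell of the body, and the WT littermates carry neither. The question was which genes differ between lungs with and without the ISG15 acceptor lysines of RBM47, an RNA-binding protein. Values are CPM, the read pairs of a gene scaled to the total of that lung with TMM factors from edgeR, and are given for R/R lungs 1, 2 and 3 and then for WT lungs 1, 2 and 3, in this order.

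Each lung gave between 16501092 and 18141067 counted read pairs. Rbm47 itself was at 32.7, 33.5 and 34.1 CPM in R/R and 28.8, 30.5 and 34.4 CPM in WT lungs, and gene counts do not show the mutated codons. Markers of lung cell types were abundant in every lung, with Sftpc (surfactant protein C of alveolar type 2 cells) between 10010.4 and 13790 CPM. By edgeR's quasi-likelihood test with Benjamini-Hochberg adjustment, 300 of the 17120 tested genes were called at an adjusted p of 0.05, which is 1.75% of them (0.648% higher and 1.10% lower in R/R lungs). The groups did not overlap in 18.7% of the tested genes, and 14.2% had an unadjusted p under 0.05.

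Of the 10 lung fibroblast genes, 0 were called by edgeR's quasi-likelihood test, against 1.75% of all tested genes. An unadjusted p under 0.05 was found for 3 (Npnt, Fgfr4 and Mfap5), against 14.2% of all tested genes. DESeq2 and limma-voom each called 1 of the 10, namely Npnt. In the edgeR fit 4 of the 10 had a positive and 6 a negative log2 fold change (R/R minus WT), with a median of -0.05, where 51.2% of all genes tested had a positive value and their median was 0.0045. The gene with the clearest difference was Npnt, the matrix ligand nephronectin, whose 3 R/R lungs all lay below the 3 WT lungs. It was the only 1 of the 10 whose groups did not overlap, against 18.7% of all tested genes. Transcripts of Tcf21 and Fgf10, the transcription factor and the growth factor best known from the alveolar mesenchyme, differed by less than the spread between lungs. In RNA of a tissue, fewer cells of a type and less RNA per cell cannot be told apart.

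Reference promoter sequence is shown for 3 of the genes: Npnt, which came nearest to the threshold, Fgfr4, which had the next lowest p, and Inmt, the most abundant of the set. RefSeq promoter windows (GRCm38.p6, 250 bases before to 50 after the start site) were at hand for 7 of the 10 genes, all but Mfap5, Dcn and Lum. They were searched on both strands for the TATA box TATAAA, the GC box GGGCGG and the E-box CAGCTG, a palindrome of the class bound by TCF21 and its partners. Of all 32851 promoter windows, 13.6% held TATAAA, 35.7% held GGGCGG and 16.3% held CAGCTG. Matches are in capitals, and each stretch runs 5′ to 3′ on the strand of its gene.
Npnt, chr3:132950294-132950391, minus strand: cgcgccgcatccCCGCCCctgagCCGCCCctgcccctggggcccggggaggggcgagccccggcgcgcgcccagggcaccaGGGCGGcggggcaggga
Fgfr4, chr13:55152752-55152781, plus strand: ggagGGGCGGagtccgaggtGGGCGGggca
Inmt, chr6:55175048-55175076, minus strand: aggtctTATAAAaagatTATAAAaggcat
The stretches of Npnt and Fgfr4 hold GC boxes and no TATAAA, and the stretch of Inmt holds TATAAA at 2 places. CAGCTG was found in the windows of Inmt and Pi16 and in no window of Tcf21, Pdgfra, Npnt, Fgf10 or Fgfr4. These letter matches describe the reference sequence and are not binding sites measured in these lungs.

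The abundance of the 10 genes spanned a wide range. Levels of different genes were compared as TPM, which take the exon length of each gene into account. Inmt, a methyltransferase that acts on indole amines, was at 3670 ± 807 TPM in R/R and 3590 ± 185 TPM in WT lungs (SD, n = 3 each), above 99.9% of the tested genes. Npnt followed with 804 ± 82.0 TPM in R/R and 1099 ± 121 TPM in WT lungs. Pdgfra, the receptor for PDGF-A on interstitial fibroblasts, ranged from 115 to 169 TPM over the 6 lungs, and Tcf21 from 114 to 169 TPM, so the order of these neighbours cannot be told from their spread. Fgfr4 (52.5 to 96.1 TPM), Dcn (32.6 to 62.7 TPM) and Mfap5 (34.7 to 63.1 TPM) overlapped as neighbours in the same way. Fgf10 ranged from 14.2 to 16.6 TPM, Pi16 from 6.57 to 17.5 TPM and Lum from 4.50 to 9.31 TPM, the last being above 29.6% of the tested genes. Pi16 overlapped with Fgf10 and with Lum, whereas Inmt and Npnt, Npnt and Pdgfra, and Mfap5 and Fgf10 did not overlap in any lung.

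**Figure D1:**
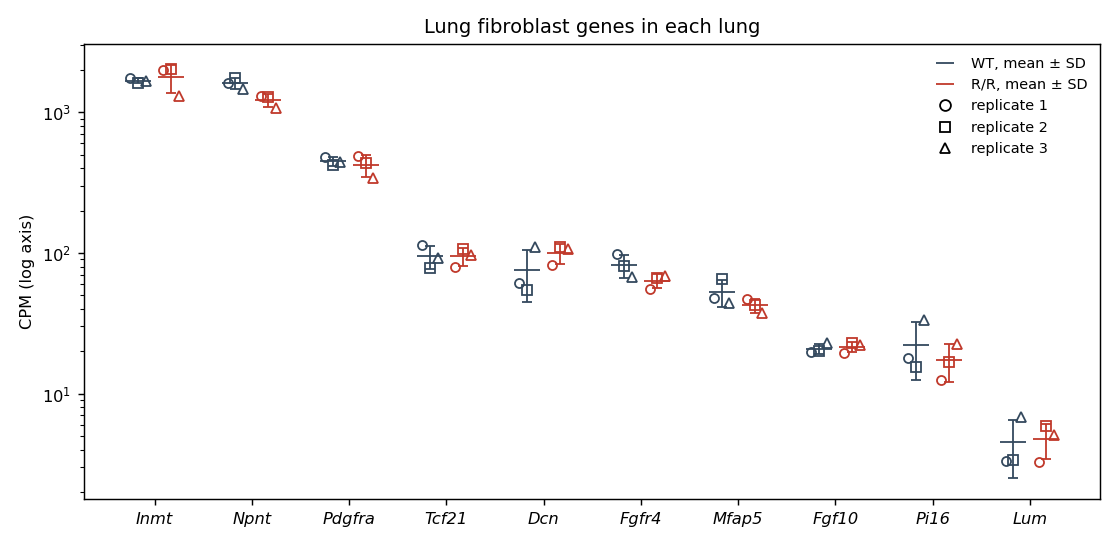
CPM of the 10 lung fibroblast genes in each lung on a log axis, ordered by mean level, with WT in dark blue and R/R in red; symbols mark the replicate and bars the mean ± SD of 3 lungs. Npnt is the gene whose R/R and WT lungs do not overlap, which was so for 18.7% of all tested genes. Pi16, Dcn and Lum have their highest WT value in WT replicate 3.

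Npnt (ENSMUSG00000040998.18, chromosome 3, 132881745 to 132950291, minus strand, GRCm38 as for all positions below) encodes nephronectin, a basement membrane protein that binds integrin α8β1. Its level was 1303, 1287 and 1069 CPM in R/R and 1612, 1747 and 1463 CPM in WT lungs. The 2 genotypes did not overlap. Mean levels were 1219 ± 131 CPM (R/R) and 1607 ± 142 CPM (WT; SD, n = 3 each). This gave a log2 fold change of -0.40 (standard error 0.09, 95% interval -0.60 to -0.20, adjusted p = 0.0575 by edgeR's quasi-likelihood test), just outside the threshold. An exact two-sided permutation test of log2 CPM gave p = 0.1, the smallest that 3 lungs against 3 allow. Npnt passed the threshold in 7 of 14 alternatives, among them DESeq2 (adjusted p = 0.00039), limma-voom (0.0466) and library sizes without TMM (0.0496). The fit without the filter, also among the 7, did not use the spread of single genes between lungs. Among the single lungs left out it did so only without WT replicate 3 (0.0164), and the adjusted p was as high as 0.205 without WT replicate 2. Over all alternatives its log2 fold change stayed between -0.46 and -0.31.

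The receptor side of nephronectin was measured in the same lungs. Itga8, the integrin α8 subunit and itself an alveolar fibroblast marker, was at 354, 365 and 329 CPM in R/R and 374, 343 and 326 CPM in WT lungs (log2 fold change 0.01, standard error 0.07, adjusted p = 0.982, edgeR). In a list of nephronectin, its integrin and related basement membrane proteins, 0 of 8 tested genes were called by edgeR. An unadjusted p under 0.05 was found for 2, against 14.2% of all tested genes, and DESeq2 and limma-voom each called only Npnt. The genes of highest mean CPM in that list, a measure not corrected for length and used in every list below, were Npnt and Itgb1, the latter with a log2 fold change of -0.09 (adjusted p = 0.646, edgeR).

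Fgfr4 (ENSMUSG00000005320.9, plus strand of chromosome 13 from 55152640 to 55168759) is a fibroblast growth factor receptor that in the mouse lung marks alveolar fibroblasts. It was at 55.3, 66.2 and 68.3 CPM in R/R and 97.5, 81.0 and 67.0 CPM in WT lungs. The groups overlapped, because WT replicate 3 lay below R/R replicate 3. Means were 63.3 ± 6.97 CPM in R/R and 81.8 ± 15.2 CPM in WT lungs, a log2 fold change of -0.37 (standard error 0.12, 95% interval -0.63 to -0.11, adjusted p = 0.167, edgeR; exact two-sided permutation p = 0.2). Without WT replicate 3 the log2 fold change of Fgfr4 was -0.50 with an adjusted p of 0.0172 (edgeR), and with any other lung left out it was not called.

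Fgf10 (ENSMUSG00000021732.14, plus strand of chromosome 13 from 118669791 to 118792115) is the mesenchymal ligand that acts on the epithelial receptor FGFR2. It was at 19.5, 22.8 and 22.2 CPM in R/R and 19.7, 20.1 and 22.9 CPM in WT lungs. The ranges lay almost on top of each other, and the log2 fold change was 0.04 (standard error 0.10, 95% interval -0.17 to 0.25, adjusted p = 0.907, edgeR; exact two-sided permutation p = 1). The FGF10 pathway list holds ligands, receptors, feedback inhibitors and hedgehog partners. Among its 18 tested genes 1 was called higher and 0 lower, where 0.648% and 1.10% of all tested genes were. An unadjusted p under 0.05 was found for 5 of them, against 14.2% of all tested genes. The called gene was Hhip, a hedgehog-binding inhibitor that marks fibroblasts of airways and alveolar ducts, at 73.9, 86.1 and 76.3 CPM in R/R and 60.1, 60.1 and 57.8 CPM in WT lungs (log2 fold change 0.41, standard error 0.07, adjusted p = 0.0169, edgeR). It was not called without R/R replicate 2 or with either of WT replicates 1 and 2 left out (highest adjusted p 0.0653). The genes of highest CPM in the FGF10 list were Sftpc, with a log2 fold change of 0.25 (adjusted p = 0.271, edgeR), and Fgf1, with -0.08 (adjusted p = 0.660, edgeR). Among 8 tested FGF receptors, co-receptors and binding proteins, 1 was called lower, where 1.10% of all tested genes were. It was the FGF-binding protein Fgfbp3 (log2 fold change -1.08, adjusted p = 0.0104, edgeR), which was called with each lung left out. The receptors Fgfr2 and Fgfr3, highest in CPM, had log2 fold changes of 0.19 and -0.08 (adjusted p = 0.330 and 0.734, edgeR).

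Tcf21 (ENSMUSG00000045680.8, minus strand of chromosome 10 from 22817281 to 22820174) is a basic helix-loop-helix factor of the lung mesenchyme. It was at 79.8, 106 and 96.8 CPM in R/R and 114, 78.6 and 92.2 CPM in WT lungs. The highest and the lowest values were both in WT lungs. Tcf21 had a log2 fold change of -0.01 (standard error 0.13, 95% interval -0.29 to 0.27, adjusted p = 0.983, edgeR), and its sign turned without R/R replicate 1 or WT replicate 1. In a list of 21 tested mesenchymal transcription factors 0 were called by edgeR, limma-voom called 0 and DESeq2 1. Of these factors 6 had an unadjusted p under 0.05, against 14.2% of all tested genes. A negative log2 fold change was found for 16 of the 21 (median -0.09). Highest in CPM were Tbx2 (log2 fold change -0.25, adjusted p = 0.0840) and Foxf1 (-0.02, adjusted p = 0.960, edgeR), and the sign of Foxf1 also turned without R/R replicate 1 or WT replicate 1.

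Pdgfra (ENSMUSG00000029231.15, plus strand of chromosome 5 from 75152292 to 75198215) was at 488, 432 and 343 CPM in R/R and 484, 422 and 441 CPM in WT lungs. The R/R lungs ranged more widely than the WT lungs and enclosed them, with R/R replicate 3 lowest. Pdgfra had a log2 fold change of -0.09 (standard error 0.11, 95% interval -0.33 to 0.14, adjusted p = 0.772, edgeR). Exons of Pdgfra share 456 bases with Gm42802 and 166 with Gm42803, both on the opposite strand, and pairs falling on both genes were not counted. Its sister receptor Pdgfrb, which marks pericytes, fell in R/R lungs. Pdgfrb was at 302, 313 and 289 CPM in R/R and 415, 397 and 355 CPM in WT lungs (log2 fold change -0.37, standard error 0.07, adjusted p = 0.0268, edgeR). That call was lost with any lung but WT replicate 3 left out (highest adjusted p 0.112). The 4 PDGF ligand genes Pdgfa to Pdgfd were not called by edgeR. Pdgfb, Pdgfc and Pdgfd had an unadjusted p under 0.05, against 14.2% of all tested genes. Their log2 fold changes were -0.19, 0.76 and -0.20 (adjusted p = 0.341, 0.181 and 0.340, edgeR), with Pdgfc between 25 and 74 counts a lung.

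Inmt (ENSMUSG00000003477.5, minus strand of chromosome 6 from 55170626 to 55175043) was at 1984, 2029 and 1307 CPM in R/R and 1743, 1606 and 1671 CPM in WT lungs. R/R replicate 3 was the lowest of the 6 lungs and the other 2 R/R lungs were the highest. Inmt had a log2 fold change of 0.08 (standard error 0.14, 95% interval -0.21 to 0.38, adjusted p = 0.847, edgeR). R/R replicate 3 was also the lowest lung for Pdgfra, Npnt and the adventitial gene Mfap5.

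**Figure D2:**
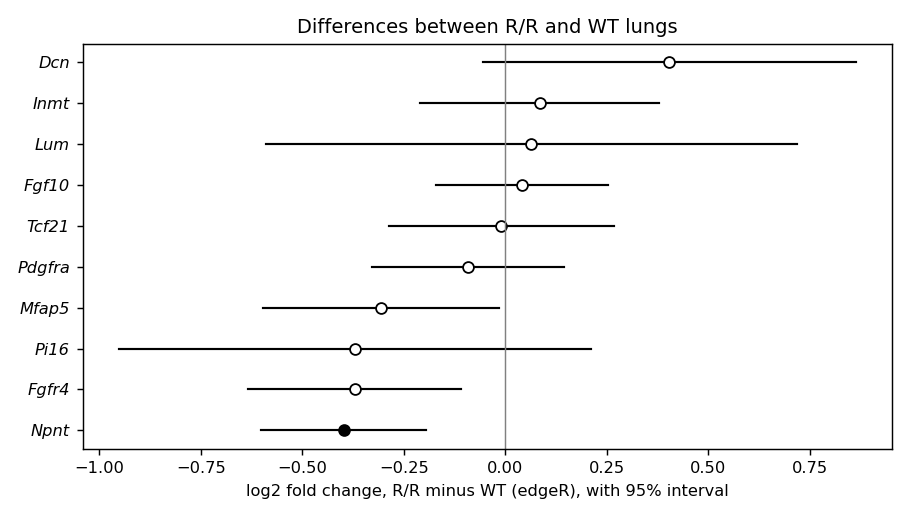
Log2 fold change (R/R minus WT, edgeR) of each lung fibroblast gene with its 95% interval. The filled point marks the gene whose groups do not overlap, which was so for 18.7% of all tested genes. The intervals of Npnt, Fgfr4 and Mfap5 lie below 0, before adjustment over all genes tested, and the other 7 include 0.

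The coefficient of variation over the 3 WT lungs was 40.1% for Dcn, 43.7% for Pi16, 44.7% for Lum and 21.6% for Mfap5, the 4 adventitial genes, and between 4.11% and 18.8% for the 6 alveolar genes. Over the 3 R/R lungs the ranges of the 2 sets overlapped, from 11.8% to 29.7% for the adventitial and from 8.2% to 22.8% for the alveolar genes. Mfap5 (ENSMUSG00000030116.14, plus strand of chromosome 6 from 122505845 to 122529290) encodes a microfibril-associated glycoprotein. It was at 47.2, 42.7 and 37.2 CPM in R/R and 47.9, 65.2 and 43.9 CPM in WT lungs. WT replicate 2 stood above the other 5 lungs, and the groups overlapped. Its log2 fold change was -0.31 (standard error 0.13, 95% interval -0.60 to -0.01, adjusted p = 0.325, edgeR), and without WT replicate 2 it was -0.12.

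Dcn (ENSMUSG00000019929.16) and Lum (ENSMUSG00000036446.5) encode decorin and lumican, small leucine-rich proteoglycans that bind collagen fibrils. They lie next to each other on the plus strand of chromosome 10, Dcn from 97479609 to 97518143 and Lum from 97565128 to 97572703, with 47.0 kb between them. Dcn was at 81.5, 111 and 107 CPM in R/R and 61.1, 54.7 and 109.9 CPM in WT lungs. The R/R lungs were all above WT replicates 1 and 2, while WT replicate 3 was level with the highest R/R lungs. The log2 fold change of Dcn was 0.40 (standard error 0.21, 95% interval -0.06 to 0.86, adjusted p = 0.426, edgeR; exact two-sided permutation p = 0.3). This value was lowered by WT replicate 3. Without it the log2 fold change of Dcn was 0.78 with an adjusted p of 0.0041 (edgeR), and without WT replicate 2 it was 0.22 (adjusted p = 0.771).

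Lum was at 3.27, 5.86 and 5.07 CPM in R/R and 3.34, 3.37 and 6.85 CPM in WT lungs, from 55 to 117 counts a lung. The same 3 lungs were high for Lum and for Dcn, namely R/R replicates 2 and 3 and WT replicate 3. Its log2 fold change was 0.06 (standard error 0.30, 95% interval -0.59 to 0.72, adjusted p = 0.957, edgeR), and without WT replicate 3 it was 0.49. Their further neighbours Kera and Epyc, proteoglycans of the same family, had 0 counts in all 6 lungs. In the list of small leucine-rich proteoglycans 1 of 13 tested genes was called, against 1.75% of all tested genes. It was Podn (podocan), at 63.0, 63.4 and 66.4 CPM in R/R and 33.2, 37.2 and 41.9 CPM in WT lungs (log2 fold change 0.78, standard error 0.08, adjusted p = 0.00193, edgeR). Podn was also called with each lung left out. Bgn and Prelp, highest in CPM, had a log2 fold change of -0.02 each (adjusted p = 0.948 and 0.945, edgeR).

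Pi16 (ENSMUSG00000024011.17, plus strand of chromosome 17 from 29317680 to 29330593) encodes a secreted peptidase inhibitor and marks the adventitial fibroblast pool found in many organs. It was at 12.4, 16.7 and 22.6 CPM in R/R and 17.9, 15.5 and 33.4 CPM in WT lungs. The third lung of each genotype was the highest of its group, and the groups overlapped. Its log2 fold change was -0.37 (standard error 0.27, 95% interval -0.95 to 0.21, adjusted p = 0.597, edgeR), and without WT replicate 3 it was 0.044. Exons of Pi16 share 222 bases with AC162182.1 and those of Fgf10 share 123 bases with Gm16263, both on the opposite strand.

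**Figure D3:**
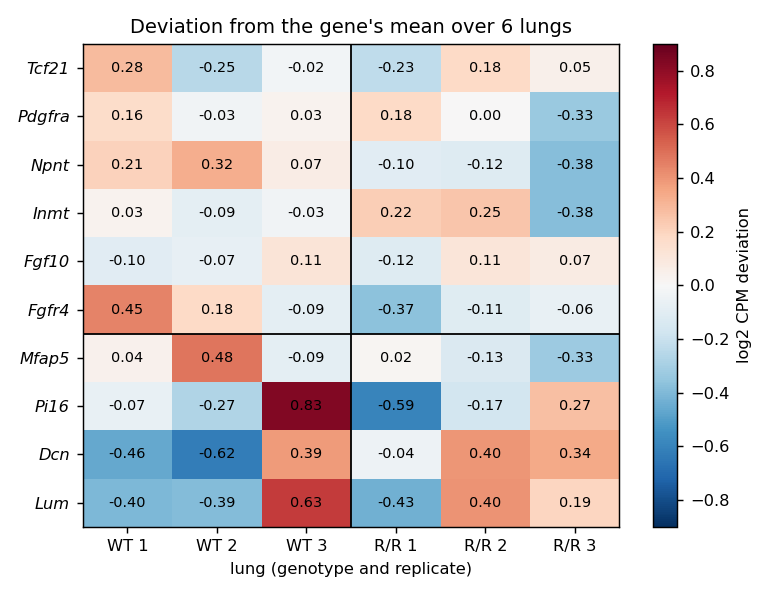
Deviation of each lung fibroblast gene from its own mean over the 6 lungs, on the log2 CPM scale, with alveolar genes above and adventitial genes below the horizontal line. Npnt is positive in all WT and negative in all R/R lungs, while Pi16, Dcn and Lum are highest or near highest in WT replicate 3 and low in WT replicate 2.

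Among the WT lungs, WT replicate 3 stood apart for adventitial genes. It was the highest WT lung for 3 of the 4 adventitial genes (Pi16, Dcn and Lum) and for 1 of the 6 alveolar genes (Fgf10), against 35.7% of all tested genes. In the wider lists it was the highest WT lung for 11 of 14 tested adventitial genes and for 2 of 15 alveolar genes. This pattern was noticed in the data and was not tested. Some markers of fat were high in WT replicate 3 and R/R replicate 3. Cfd was at 8.48 CPM in R/R replicate 3 and 8.66 CPM in WT replicate 3 and between 0.110 and 1.61 CPM elsewhere. Adipoq had no counts outside these 2 lungs, and Plin1 and Retn were highest in them, at 36 counts or fewer. Dcn and Lum were also high in R/R replicate 2, where Cfd was at 1.61 CPM. Cidec, the adipose gene of highest CPM, was at 16.7, 15.3 and 16.8 CPM in R/R and 8.99, 11.1 and 15.6 CPM in WT lungs. The summed level of the 7 adipose genes was 17.4, 17.2 and 27.98 CPM in R/R and 9.29, 11.8 and 28.2 CPM in WT lungs. The sum of the 8 heart muscle genes was highest in WT replicates 1 and 2, at 168 and 264 CPM. It was 84.7 CPM in WT replicate 3 and between 61.8 and 120.4 CPM in R/R lungs. Myh6, Myl4, Myl7, Sln, Tnni3 and Tnnt2 were each highest in WT replicates 1 and 2. Actc1, the heart gene of highest mean CPM, was instead highest in WT replicate 3. Its level was 43.3, 56.6 and 53.5 CPM in R/R and 56.3, 65.5 and 68.2 CPM in WT lungs. Nppa, a defining atrial marker, was at 0 or 1 count in each lung. The part of either tissue in the values of the fibroblast genes was not tested. With R/R replicate 3 and WT replicate 3 both left out, a choice made after seeing the data, edgeR called 3 of the 10 genes: Npnt (log2 fold change -0.38, adjusted p = 0.0141), Fgfr4 (-0.56, 0.0209) and Dcn (0.73, 0.0121). That fit called 575 of 17218 tested genes.

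Beyond the 10 genes, the wider alveolar fibroblast list held the called gene with the largest log2 fold change in size of the fibroblast lists, Mfap4. Of its 15 tested genes 2 were called lower and 0 higher, and 13 had a negative log2 fold change (median -0.14), where 1.10% of all tested genes were called lower. Mfap4, a matrix protein bound to elastic microfibrils, was at 429, 494 and 485 CPM in R/R and 1274, 1620 and 913 CPM in WT lungs (log2 fold change -1.44, standard error 0.16, adjusted p = 0.00193, edgeR), and was called with each lung left out. Slc7a10, an amino acid transporter, was at 32.4, 38.1 and 43.5 CPM in R/R and 54.8, 63.5 and 49.8 CPM in WT lungs (log2 fold change -0.56, standard error 0.11, adjusted p = 0.0331, edgeR). Its call was lost without replicate 1 or 2 of either genotype (highest adjusted p 0.126). The genes of highest CPM in the list, not corrected for length, were Macf1 and Limch1, with log2 fold changes of -0.27 and -0.14 (adjusted p = 0.138 and 0.387, edgeR), and Macf1 was called without WT replicate 3 (0.0246). In the adventitial list 1 of 14 tested genes was called, against 1.75% of all tested genes. It was Tnxb (tenascin-X), at 288, 314 and 340 CPM in R/R and 215, 241 and 266 CPM in WT lungs (log2 fold change 0.38, standard error 0.08, adjusted p = 0.0447, edgeR). Without replicate 2 or 3 of R/R or replicate 1 or 2 of WT it was not called (highest adjusted p 0.170). The adventitial genes of highest CPM, Ly6a and Igfbp4, had log2 fold changes of -0.0017 and 0.0090 (adjusted p = 0.997 and 0.972, edgeR).

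Microfibril proteins, the family of Mfap5, held more called genes than the other lists of matrix genes. Of 13 tested genes 4 were called lower (Mfap4, Mfap2, Fbn1 and Ltbp2) and 0 higher, where 1.10% of all tested genes were called lower. The median over the 13 was -0.23, and 8 had an unadjusted p under 0.05, against 14.2% of all tested genes. Fbn1, which encodes fibrillin-1, was at 284, 234 and 261 CPM in R/R and 323, 380 and 342 CPM in WT lungs (log2 fold change -0.43, adjusted p = 0.0308, edgeR). Mfap2, the sister of Mfap5, was at 66.2, 62.4 and 53.1 CPM in R/R and 84.2, 82.6 and 77.9 CPM in WT lungs (log2 fold change -0.43, adjusted p = 0.0269, edgeR). Ltbp2, a latent TGF-β binding protein, had a log2 fold change of -0.34 (adjusted p = 0.0402, edgeR), and Ltbp4, highest in CPM, one of 0.14 (adjusted p = 0.411, edgeR). The calls of Fbn1 and Mfap2 were lost without R/R replicate 2 or 3 or WT replicate 1 or 2, and that of Ltbp2 with any lung but WT replicate 3 left out. In the list of general fibroblast genes 0 of 14 were called by edgeR, limma-voom called 0 and DESeq2 3, 8 had an unadjusted p under 0.05 (14.2% of all tested genes) and 12 had a negative log2 fold change (median -0.23). Col3a1 and Vim, highest in CPM, had log2 fold changes of -0.26 and 0.09 (adjusted p = 0.237 and 0.558, edgeR).

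Neighbouring mesenchymal cells gave the following counts by the same test. Of 11 pericyte genes 11 had a negative log2 fold change (median -0.27), and 2 were called lower, where 1.10% of all tested genes were, namely Pdgfrb and Gucy1a1 (log2 fold change -0.36, adjusted p = 0.0462, edgeR). An unadjusted p under 0.05 was found for 10 of the 11, against 14.2% of all tested genes. Both calls were lost with any lung but WT replicate 3 left out, in which fit 5 were called. Of 9 smooth muscle genes and of 7 lipofibroblast genes 0 were called by edgeR. An unadjusted p under 0.05 was found for 1 and 5 of them, against 14.2% of all tested genes. In both lists limma-voom called 0, and DESeq2 called 1 smooth muscle gene. Of 10 genes of duct and airway fibroblasts 1, Hhip, was called, against 1.75% of all tested genes. Of 8 mesothelial genes 1 was called higher, where 0.648% of all tested genes were. It was Lrrn4 (log2 fold change 1.01, adjusted p = 0.0124, edgeR), which was not called without R/R replicate 2 or WT replicate 1. Of the 8 genes 7 had a positive log2 fold change (median 0.72), and 6 had an unadjusted p under 0.05, against 14.2% of all tested genes. Among 12 TGF-β ligands, receptors and targets 1 was called higher, where 0.648% of all tested genes were. It was Ccn1, a secreted matricellular protein (log2 fold change 1.02, adjusted p = 0.00193, edgeR), also called with each lung left out. Of 11 cartilage genes 2 had enough counts to be tested, with 0 called by edgeR, DESeq2 or limma-voom and 0 at an unadjusted p under 0.05, namely Col11a2 (38 to 67 counts a lung) and Col9a3 (10 to 33 counts), while Acan, Col9a1 and Matn1 had 0 counts in every lung.

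**Figure D4:**
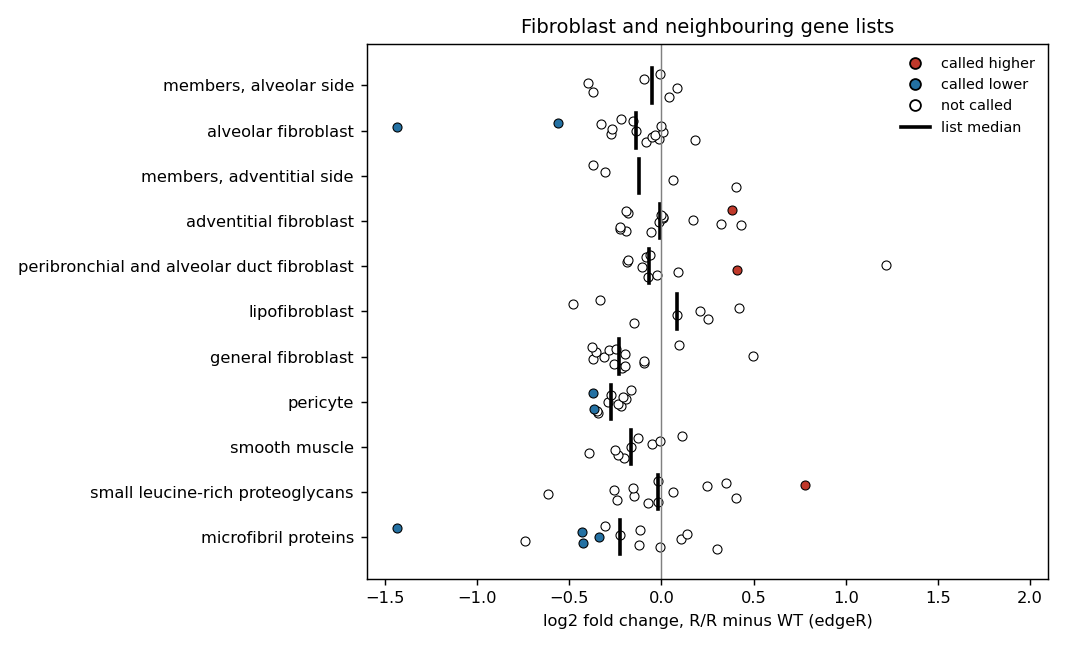
Log2 fold change (R/R minus WT, edgeR) of every tested gene of the fibroblast lists and neighbouring lists; points are genes, filled where called, and the vertical bar is the median of the list. The rows of members are the 6 alveolar and 4 adventitial genes described above. The lung fibroblast genes hold no called gene, the microfibril list holds 4 called lower, and every pericyte gene lies left of 0.

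The genes whose levels followed the mean of the alveolar set most closely over the 6 lungs were Nipbl, Ankrd17 and Zfp609. They were drawn from 11132 genes whose mean log2 CPM reached 3. Pearson's r with the mean standardized level of the 6 alveolar genes was 0.991, 0.983 and 0.980, and Spearman's rho was 1 for each. For the adventitial set they were Nelfe, Golim4 and Bex3 (Pearson's r 0.993, 0.982 and 0.981, Spearman's rho 1, 0.943 and 0.886). With 6 lungs and so many genes, values this high are a description of these libraries. The genes of a set did not all move together, so its mean is not a pattern shared by its members. In R/R replicate 1 the alveolar genes Inmt and Fgfr4 deviated by 0.22 and -0.37 log2 units from their own means. In R/R replicate 3 the adventitial genes Pi16 and Mfap5 deviated by 0.27 and -0.33.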

How the data were processed

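RNA of 3 R/R and 3 WT lungs was sequenced as paired reads of 150 bp. HISAT2 2.1.0 was the aligner, with mm10 (GRCm38) as genome, and the authors deposited unnormalized counts of read pairs for each gene, made by featureCounts 2.0.1 from GENCODE M25, without strand and without multi-mapping pairs. The values of 1 column were recorded as an estimated count, since an automatic check misread the comment line of the deposited table. They are whole numbers and were not rounded. The deposited exon lengths served for TPM. The submitters' processing notes also name DESeq2, and the supplement edgeR. Symbols from GENCODE M21 matched 55141 of 56262 identifiers.

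The filter was filterByExpr. It asks for the CPM of 10 counts at median depth in as many lungs as the smaller group holds, and for 15 counts in total. After TMM scaling, R/R and WT lungs were compared by edgeR's quasi-likelihood test (R 4.3.3, edgeR 4.0.16), adjusted by Benjamini-Hochberg over all genes tested, with calls at 0.05. Alternatives were limma-voom (limma 3.58.1), DESeq2 1.42.0, other scalings and filters, a replicate block and each lung left out. The standard error is the size of the log2 fold change over the square root of its F statistic. Log2 CPM used a prior count of 0.5. In the shallowest lung 3 counts are 0.182 CPM, which covers counting error only. The tests were checked on simulated counts.

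The 10 genes, the lists and the tests were chosen with earlier results of these data known. Named were all 10 genes and, for the lists described in full, called genes (at most 4) and the 2 of highest mean CPM, not corrected for length. Itga8, the PDGF ligands, Kera, Epyc and the markers of fat, heart and cartilage were named after their values were seen. The labels call the lungs replicates, and the supplement says that they are biological ones.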

Additional observations from a re-analysis of the deposited data

How the results depend on the processing

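The number of called genes (300) became 541 with DESeq2, 1109 without a filter beyond 1 count in total, from 65 to 621 with each lung left out, and 575 without R/R replicate 3 and WT replicate 3. The number of lung fibroblast genes called (0) became 1 with DESeq2, library sizes without TMM and limma-voom, 5 without the filter (Npnt, Fgfr4, Mfap5, Pi16 and Dcn), 3 without both lungs numbered 3, and 0 to 3 with each lung left out. In the fit without the filter the prior degrees of freedom were infinite, so the spread of single genes between lungs was not used. There Dcn had an adjusted p of 3.2e-06 (edgeR), against 0.426 in the main fit, at log2 fold changes of 0.41 and 0.40. The labels link the lungs of the 2 genotypes only by a replicate number. Deviations from group means of same-numbered lungs correlated between -0.015 and -0.0036 over the tested genes, and no lung correlated best with its own number. Single genes can still be shared, since Cfd and Adipoq were highest in both lungs numbered 3. What else same-numbered lungs share was not tested. With the replicate block 446 genes and 1 fibroblast gene (Npnt, adjusted p = 0.0152, edgeR) were called. Of 140 log2 fold changes of the fibroblast genes under the alternatives, 113 kept direction and side of the threshold, 15 passed it and 12 turned sign. Of those 15, 5 came from the fit without the filter.

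Turned signs, with the range over lungs left out, were as follows. Tcf21 gave 0.10 without R/R replicate 1 and 0.14 without WT replicate 1 (-0.13 to 0.14). Pdgfra gave 0.036 without R/R replicate 3 and 0.022 without both lungs numbered 3 (-0.21 to 0.036). Inmt gave -0.0055 without R/R replicate 1 and -0.024 without R/R replicate 2 (-0.024 to 0.26). Fgf10 gave -0.0034 without R/R replicate 2 and -0.0028 without WT replicate 1 (-0.0034 to 0.11). Pi16 gave 0.044 without WT replicate 3 (-0.61 to 0.044). Lum gave -0.12 without R/R replicate 2 and -0.11 without WT replicate 1 or 2 (-0.12 to 0.49). Among the other named genes, values over lungs left out spanned 0 for Itga8 (-0.041 to 0.059), Foxf1 (-0.11 to 0.084), Bgn (-0.085 to 0.042; 0.022 without both lungs numbered 3), Prelp (-0.077 to 0.067; 0.052), Ly6a (-0.058 to 0.056; -0.10 without both lungs numbered 3, 0.0019 with upper-quartile factors and 0.0031 without the filter) and Igfbp4 (-0.039 to 0.052; -0.024 without both). The cause was not tested. Lum had the fewest counts of the 10 genes, and how far depth limits it was not tested.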
